A study of Mus musculus with 4 samples.

Results

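Antiviral effectors induced by interferon were compared between mouse embryonic fibroblasts (MEFs) that lack the chromatin protein Pf1 and wild-type MEFs. The genes came from a list of 38 interferon-stimulated effectors (the Ifit, Oas, Mx, Ifitm, Schlafen and Parp families and others), and a member was measured where a probe set of the array carried its symbol alone in the platform annotation. This held for 36 of the 38 genes, among 18193 genes in all. Ifi44 had no named probe set, and Isg15, the ubiquitin-like modifier of the response, was listed only together with another gene, so neither is given a value. The 36 genes had 64 probe sets, with 1 probe set for 20 genes and several for 16. The list was drawn up with earlier results of these data known.

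There were 4 MEF lines with 1 Affymetrix array each. Lines 2 and 4 were homozygous knockouts of Pf1 (Pf1 -/-, KO) and lines 5 and 6 were wild type (Pf1 +/+, WT), and no interferon, virus or other agent is named in the labels of either genotype. All 4 lines share the prefix 7706, passage 2 to 3, culture in 6% oxygen and an origin in dispersed torsos of embryos of day 13.5 or 14.5. The labels do not give the passage or embryonic day of each line, nor say that each line came from an embryo of its own, so a p-value measures the spread between these lines. Pf1 is encoded by Phf12 and acts with Sin3 and histone deacetylase corepressor complexes.

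Cells that detect viral RNA or DNA secrete type I interferon, which binds its receptor on the same or other cells. The kinases Jak1 and Tyk2 then activate Stat2, which joins Irf9 in a complex that binds the interferon-stimulated response element (ISRE) in the promoters of the effectors. The effector proteins block viral entry, translation, genome replication and release, and fibroblasts in culture are known to keep a low constitutive level of this response.

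The promoters are shown because the complex described above binds a short motif. Whether that complex or the motif had a part in the differences between the lines was not tested. RefSeq (GRCm38.p6) gave a promoter for 30 of the 38 listed genes, from 250 bases before to 50 bases after the gene's start. The motif searched was the ISRE core, read as GAAA, any 2 bases and GAAA, or TTTC, any 2 bases and TTTC for a match on the other strand, with overlapping matches counted. It was present for 13 of the 30 genes (43.3%), against 3.99% of the 27025 genes with a promoter and 3.44% of all 32851 promoters. The 160 bases before the start follow for 8 members, 5′ to 3′ on the strand of the gene, with the matched motif in capitals. Ifit1 and Ifit3 carry separate matches, Oas1a and Bst2 overlapping ones, Rsad2, Slfn8 and Slfn9 1 match each, and Ifitm1 none.
Ifit1 (chr19:34640729-34640888, + strand): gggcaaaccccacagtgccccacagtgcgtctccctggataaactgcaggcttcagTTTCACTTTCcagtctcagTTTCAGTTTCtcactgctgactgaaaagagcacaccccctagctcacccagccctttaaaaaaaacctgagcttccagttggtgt
Ifit3 (chr19:34583369-34583528, + strand): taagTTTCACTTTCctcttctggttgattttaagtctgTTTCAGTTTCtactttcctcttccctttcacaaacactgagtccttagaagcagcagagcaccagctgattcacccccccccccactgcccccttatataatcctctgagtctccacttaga
Oas1a (chr5:120907526-120907685, - strand): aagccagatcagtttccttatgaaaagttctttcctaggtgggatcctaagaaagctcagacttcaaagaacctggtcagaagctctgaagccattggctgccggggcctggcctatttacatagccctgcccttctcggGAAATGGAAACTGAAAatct
Bst2 (chr8:71537473-71537632, - strand): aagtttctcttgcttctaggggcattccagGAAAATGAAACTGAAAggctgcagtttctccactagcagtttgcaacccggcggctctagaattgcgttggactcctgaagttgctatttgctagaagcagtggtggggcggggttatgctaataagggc
Rsad2 (chr12:26456453-26456612, - strand): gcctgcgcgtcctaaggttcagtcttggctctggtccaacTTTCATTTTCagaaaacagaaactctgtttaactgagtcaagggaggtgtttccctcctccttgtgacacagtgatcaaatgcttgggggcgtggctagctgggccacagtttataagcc
Slfn8 (chr11:83020811-83020970, - strand): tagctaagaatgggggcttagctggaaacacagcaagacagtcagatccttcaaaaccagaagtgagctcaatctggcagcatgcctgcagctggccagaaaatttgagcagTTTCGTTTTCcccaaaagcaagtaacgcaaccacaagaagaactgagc
Slfn9 (chr11:82991831-82991990, - strand): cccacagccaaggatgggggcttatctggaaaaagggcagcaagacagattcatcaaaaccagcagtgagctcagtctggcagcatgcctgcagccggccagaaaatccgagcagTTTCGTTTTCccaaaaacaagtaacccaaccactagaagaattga
Ifitm1 (chr7:140967916-140968075, + strand): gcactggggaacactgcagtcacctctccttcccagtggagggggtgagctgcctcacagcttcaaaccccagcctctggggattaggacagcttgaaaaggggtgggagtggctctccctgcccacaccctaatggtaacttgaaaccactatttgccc
Slfn8 has a further promoter in the table, which is not shown. In Isg15 the table held 3 overlapping matches, at positions -78, -72 and -66, whereas those of Ifitm3 and Eif2ak2 lay after it. Of the 12 measured genes with a match 6 were called lower in the KO lines, with a median difference of -1.30, and of the 16 measured genes with a promoter and no match 9 were, with a median of -1.02. Of all measured genes 6.95% were called lower, with a median of -0.0027. Differences are KO minus WT on a log2 scale, and calls are defined below. A match describes letters in this window and is not a measured binding site.

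**Figure D1:**
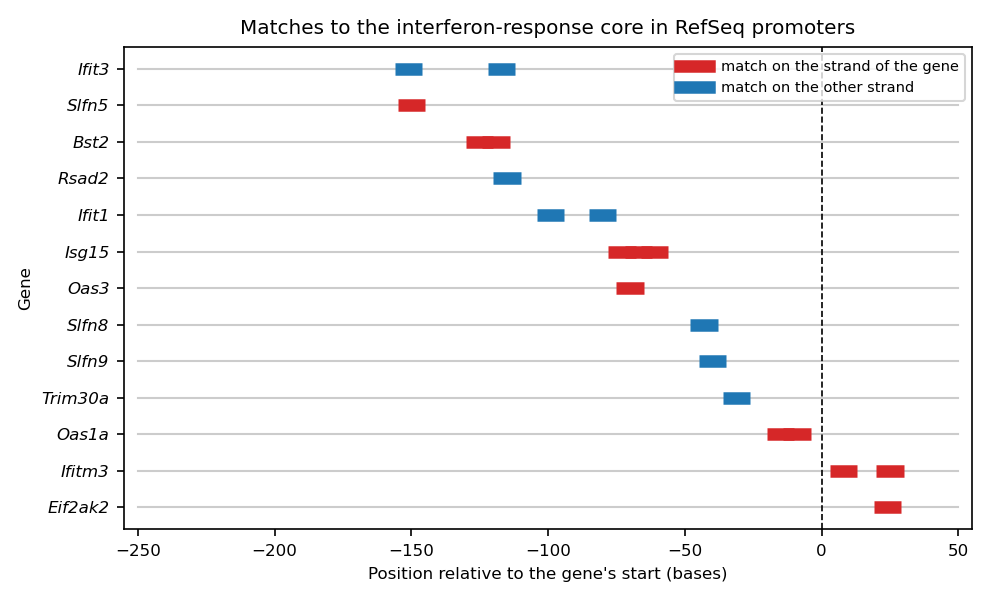
Position of each match to the ISRE core in the promoter of the 13 listed genes that have one (x axis, bases relative to the gene's start; 1 row per gene, first promoter in the table; red, match on the strand of the gene; blue, match on the other strand). The matches of 11 genes lie before the start and those of Ifitm3 and Eif2ak2 after it.

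Values are on a log2 scale, as deposited after RMA, which corrects background, makes the arrays' distributions equal and summarises each probe set, and each probe set had been centred on its median over the 4 arrays. They therefore show differences between lines and hold no signal level, so neither the order of abundance among the genes nor the presence of fibroblast markers can be read from them. The targeted gene was checked first. Of the 2 probe sets of Phf12, 1434922_at stood at -0.37 and -0.41 in KO lines 2 and 4, against 0.56 and 0.37 in WT lines 5 and 6 (limma adjusted p = 0.0192), while 1453579_at differed by 0.012 (limma adjusted p = 0.961). Where either lies relative to the deleted part was not stated in the labels. Differences are KO minus WT, with the standard error (SE) of the limma fit over 2 lines per genotype, and a gene was called at a Benjamini-Hochberg adjusted p under 0.05 over all genes.

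The effectors were lower in the KO lines. Of 36 measured genes, 20 fell, 0 rose and 16 were not called (limma), against 6.95% of all genes called lower and 5.21% called higher. Without adjustment, 29 effectors had a p under 0.05 in the lower direction and 1, Xaf1 by its gene mean, in the higher, against 15.2% and 14.3% of all genes. The median difference was -1.15, with quartiles at -1.66 and -0.74, beside a median of -0.0027 over all genes. Of the 20 called genes, 16 fell at least 2-fold and 6 at least 4-fold, with limma adjusted p between 0.0103 and 0.0435. The 10 uncalled members with an unadjusted p under 0.05 were 9 lower ones and Xaf1, so that the group of 16 holds genes just past the threshold (Sp100, adjusted p = 0.0501) as well as genes with little difference (Epsti1, adjusted p = 0.591).

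Both KO lines lay below both WT lines for 31 of the 36 effectors, against 29.5% of all genes, and for 28 the means were also at least 1.5-fold apart, against 5.53%. By its gene mean, Xaf1 alone lay higher in both KO lines, at least 1.5-fold, as did 4.11% of all genes. Its probe sets moved in opposite directions, as described below. Counted in either direction, 32 effectors and 58.2% of all genes did not overlap, and Oas3, Oasl1, Slfn5 and Epsti1 did. The calls depended on having all 4 lines. Refitted on 3 lines, with a single line in 1 genotype and 1 residual degree of freedom, limma called far fewer genes or none. This held over all genes as well as among the effectors. In those fits the effectors with an unadjusted p under 0.05 in the lower direction numbered 28 without KO line 2 (of all genes, 9.95% did so), 29 without KO line 4 (all genes, 10.7%), 25 without WT line 5 (all genes, 13.5%) and 29 without WT line 6 (all genes, 14.6%), and the median difference lay between -1.33 and -0.89.

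**Figure D2:**
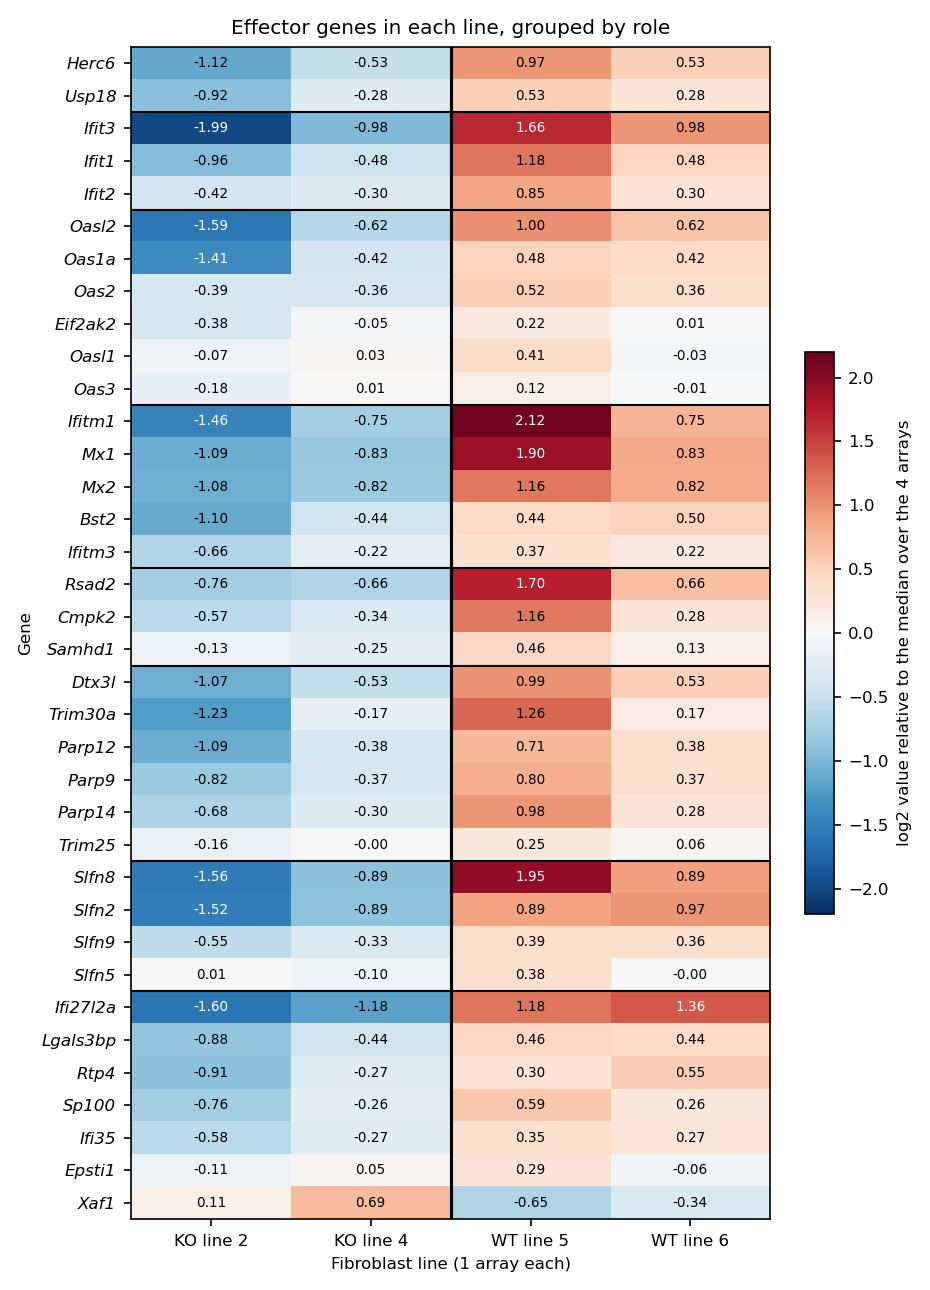
Value of each of the 36 measured effectors in each line (log2 relative to the median over the 4 arrays, mean of the gene's probe sets; columns, KO lines 2 and 4 and WT lines 5 and 6; rows grouped by role). Values below 0 fill most of the KO columns and values above 0 most of the WT columns. Xaf1 is the gene whose mean lies higher in both KO lines, although its probe sets moved in opposite directions.

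The ISG15 system attaches and removes the modifier Isg15. Herc6, the main Isg15 ligase of the mouse, stood at -1.12 and -0.53 in KO lines 2 and 4, against 0.97 and 0.53 in WT lines 5 and 6. Both KO lines lay below both WT lines, and the gene fell 2.98-fold (-1.58 ± 0.244 SE, limma adjusted p = 0.0258), with all 4 of its probe sets called lower. Usp18, the protease that removes Isg15 and dampens the interferon receptor, stood at -0.92 and -0.28 in KO lines 2 and 4, against 0.53 and 0.28 in WT lines 5 and 6. Its lines did not overlap either, but the difference of -0.997 ± 0.231 SE missed the threshold (limma adjusted p = 0.0554). A pair of enzymes of the same pathway that are not among the 38 were called lower as well: the activating enzyme Uba7 by -1.65 ± 0.187 SE and the conjugating enzyme Ube2l6 by -1.40 ± 0.142 SE (limma adjusted p = 0.0166 and 0.0155).

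The IFIT proteins are built of tetratricopeptide repeats, and Ifit1 binds RNA caps that lack host methylation. All 3 IFIT genes fell. Ifit3 had the largest difference of all 36 members, at -1.99 and -0.98 in KO lines 2 and 4, against 1.66 and 0.98 in WT lines 5 and 6. KO line 2 was the lowest and WT line 5 the highest, without overlap (6.96-fold, -2.80 ± 0.393 SE, limma adjusted p = 0.0215). Ifit1 stood at -0.96 and -0.48 in the KO lines, against 1.18 and 0.48 in the WT lines (2.93-fold, -1.55 ± 0.28 SE, limma adjusted p = 0.0334). Ifit2, on chromosome 19 like Ifit1 and Ifit3, stood at -0.42 and -0.30 in the KO lines, against 0.85 and 0.30 in the WT lines. Its 1.91-fold fall (-0.94 ± 0.194 SE) had the highest adjusted p among the called members (limma adjusted p = 0.0435).

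Of 6 enzymes that sense dsRNA or are related to such enzymes, 2 fell. The Oas enzymes make oligoadenylates that activate RNase L, and the kinase Eif2ak2 (PKR) halts translation. Oas2 stood at -0.39 and -0.36 in KO lines 2 and 4, against 0.52 and 0.36 in WT lines 5 and 6, and fell 1.76-fold (-0.82 ± 0.0938 SE, limma adjusted p = 0.0166). The KO lines were nearly equal for this gene. Oasl2 stood at -1.59 and -0.62 in the KO lines, against 1.00 and 0.62 in the WT lines, and fell 3.78-fold (-1.92 ± 0.339 SE, limma adjusted p = 0.0323). Oas1a stood at -1.41 and -0.42 in the KO lines, against 0.48 and 0.42 in the WT lines. The WT lines were alike and the KO lines 0.99 apart, and the difference of -1.36 ± 0.321 SE was not called (limma adjusted p = 0.0574). Oas3 and Oasl1, a relative without known synthetase activity, showed the smallest differences of the family. Oas3 stood at -0.18 and 0.0053 in the KO lines, against 0.12 and -0.0053 in the WT lines (-0.14, limma adjusted p = 0.443). Oasl1 stood at -0.071 and 0.031 in the KO lines, against 0.41 and -0.031 in the WT lines (-0.21, limma adjusted p = 0.472). Both overlapped between the genotypes, and without WT line 5 the difference of Oasl1 was 0.011. Eif2ak2 stood at -0.38 and -0.045 in the KO lines, against 0.22 and 0.0091 in the WT lines (-0.33, limma adjusted p = 0.223).

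Proteins that block viral entry, uncoating or release fell in 4 of 5 cases. Mx2, a cytoplasmic dynamin-like GTPase in the mouse, stood at -1.08 and -0.82 in KO lines 2 and 4, against 1.16 and 0.82 in WT lines 5 and 6. Its 3.84-fold fall (-1.94 ± 0.154 SE, limma adjusted p = 0.0122) was much larger than the gap within either genotype. Mx1, its nuclear relative, stood at -1.09 and -0.83 in the KO lines, against 1.90 and 0.83 in the WT lines, and fell 5.00-fold (-2.32 ± 0.358 SE, limma adjusted p = 0.0257), with WT line 5 above WT line 6 by 1.08. Bst2 (tetherin), which holds budding virions at the cell surface, stood at -1.10 and -0.44 in the KO lines, against 0.44 and 0.50 in the WT lines. For this gene the WT lines lay 0.062 apart, and the fall was 2.37-fold (-1.24 ± 0.224 SE, limma adjusted p = 0.0334). Ifitm1 and Ifitm3 are membrane proteins that hinder viral fusion. Ifitm1 stood at -1.46 and -0.75 in the KO lines, against 2.12 and 0.75 in the WT lines, the widest gap between WT lines of any member (1.36), and fell 5.84-fold (-2.55 ± 0.491 SE, limma adjusted p = 0.0376, and 0.0695 with a robust prior). The size moved with which WT line was used, with -1.86 without WT line 5 and -3.23 without WT line 6. Ifitm3 stood at -0.66 and -0.22 in the KO lines, against 0.37 and 0.22 in the WT lines, and was not called (-0.73 ± 0.168 SE, limma adjusted p = 0.0539).

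Among the enzymes that act on nucleotides, Rsad2 (viperin), which makes a chain-terminating nucleotide, stood at -0.76 and -0.66 in KO lines 2 and 4, against 1.70 and 0.66 in WT lines 5 and 6. The KO lines were close together and WT line 5 was 1.04 above WT line 6. It fell 3.71-fold (-1.89 ± 0.34 SE, limma adjusted p = 0.0331), and all 3 of its probe sets were called lower. Cmpk2, a mitochondrial nucleotide kinase encoded next to Rsad2 on chromosome 12, stood at -0.57 and -0.34 in the KO lines, against 1.16 and 0.28 in the WT lines (-1.17 ± 0.296 SE, limma adjusted p = 0.0669). Samhd1, which degrades deoxynucleotides, stood at -0.13 and -0.25 in the KO lines, against 0.46 and 0.13 in the WT lines (-0.49 ± 0.136 SE, limma adjusted p = 0.0839). Both lacked overlap between the genotypes and missed the threshold.

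Of 6 ADP-ribosyl transferases and ubiquitin ligases, 3 fell. Dtx3l and Parp9 form a complex and are encoded on chromosome 16, as is Parp14. Dtx3l stood at -1.07 and -0.53 in KO lines 2 and 4, against 0.99 and 0.53 in WT lines 5 and 6 (2.94-fold lower, -1.56 ± 0.239 SE, limma adjusted p = 0.0255). Parp9 stood at -0.82 and -0.37 in the KO lines, against 0.80 and 0.37 in the WT lines (2.27-fold lower, limma adjusted p = 0.0323). Both showed the same rank of lines. Parp12 stood at -1.09 and -0.38 in the KO lines, against 0.71 and 0.38 in the WT lines (2.44-fold lower, limma adjusted p = 0.0409, and 0.0506 with array weights). Parp14 stood at -0.68 and -0.30 in the KO lines, against 0.98 and 0.28 in the WT lines (-1.12, limma adjusted p = 0.0573). The lines of these 4 genes did not overlap between the genotypes, nor did those of Trim30a and Trim25. Trim30a stood at -1.23 and -0.17 in the KO lines, against 1.26 and 0.17 in the WT lines, with both genotypes over 1 log2 unit apart within themselves (-1.42 ± 0.483 SE, limma adjusted p = 0.129). Trim25, a ubiquitin ligase of the RNA sensor RIG-I, stood at -0.16 and -0.00017 in the KO lines, against 0.25 and 0.064 in the WT lines (-0.23, limma adjusted p = 0.239).

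Schlafens are a rodent-expanded family encoded in a cluster on chromosome 11, and 3 of the 4 measured members fell. Slfn2, known for its role in lymphocyte quiescence, stood at -1.52 and -0.89 in KO lines 2 and 4, against 0.89 and 0.97 in WT lines 5 and 6. The WT lines were close together, and the fall was 4.38-fold (-2.13 ± 0.214 SE, limma adjusted p = 0.0154). Slfn8 stood at -1.56 and -0.89 in the KO lines, against 1.95 and 0.89 in the WT lines, and fell 6.27-fold (-2.65 ± 0.4 SE, limma adjusted p = 0.025). Slfn9 stood at -0.55 and -0.33 in the KO lines, against 0.39 and 0.36 in the WT lines (1.76-fold lower, -0.82 ± 0.105 SE, limma adjusted p = 0.0188). Slfn8 and Slfn9 are close paralogs, and their values are uncertain in so far as probes may not tell them apart. Slfn5 stood at 0.0096 and -0.10 in the KO lines, against 0.38 and -0.0037 in the WT lines, with overlap (-0.23, limma adjusted p = 0.378).

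Among the other induced proteins, Ifi27l2a, a small mitochondrial protein, had the lowest adjusted p of all members. It stood at -1.60 and -1.18 in KO lines 2 and 4, against 1.18 and 1.36 in WT lines 5 and 6, and fell 6.31-fold (-2.66 ± 0.164 SE, limma adjusted p = 0.0103). The genotypes were separated by far more than either pair of lines. Lgals3bp, a secreted galectin-binding glycoprotein, stood at -0.88 and -0.44 in the KO lines, against 0.46 and 0.44 in the WT lines (2.15-fold lower, -1.11 ± 0.158 SE, limma adjusted p = 0.0222). Ifi35 stood at -0.58 and -0.27 in the KO lines, against 0.35 and 0.27 in the WT lines (1.67-fold lower, limma adjusted p = 0.0313). In each of these genes the KO lines differed more than the WT lines. Sp100, a component of nuclear PML bodies, stood at -0.76 and -0.26 in the KO lines, against 0.59 and 0.26 in the WT lines (-0.93, limma adjusted p = 0.0501). Rtp4, a receptor transporter protein, stood at -0.91 and -0.27 in the KO lines, against 0.30 and 0.55 in the WT lines (-1.01, limma adjusted p = 0.0537). Neither overlapped between the genotypes. Epsti1 stood at -0.11 and 0.053 in the KO lines, against 0.29 and -0.059 in the WT lines, with overlap (-0.14, limma adjusted p = 0.591), and at 0.031 without WT line 5.

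**Figure D3:**
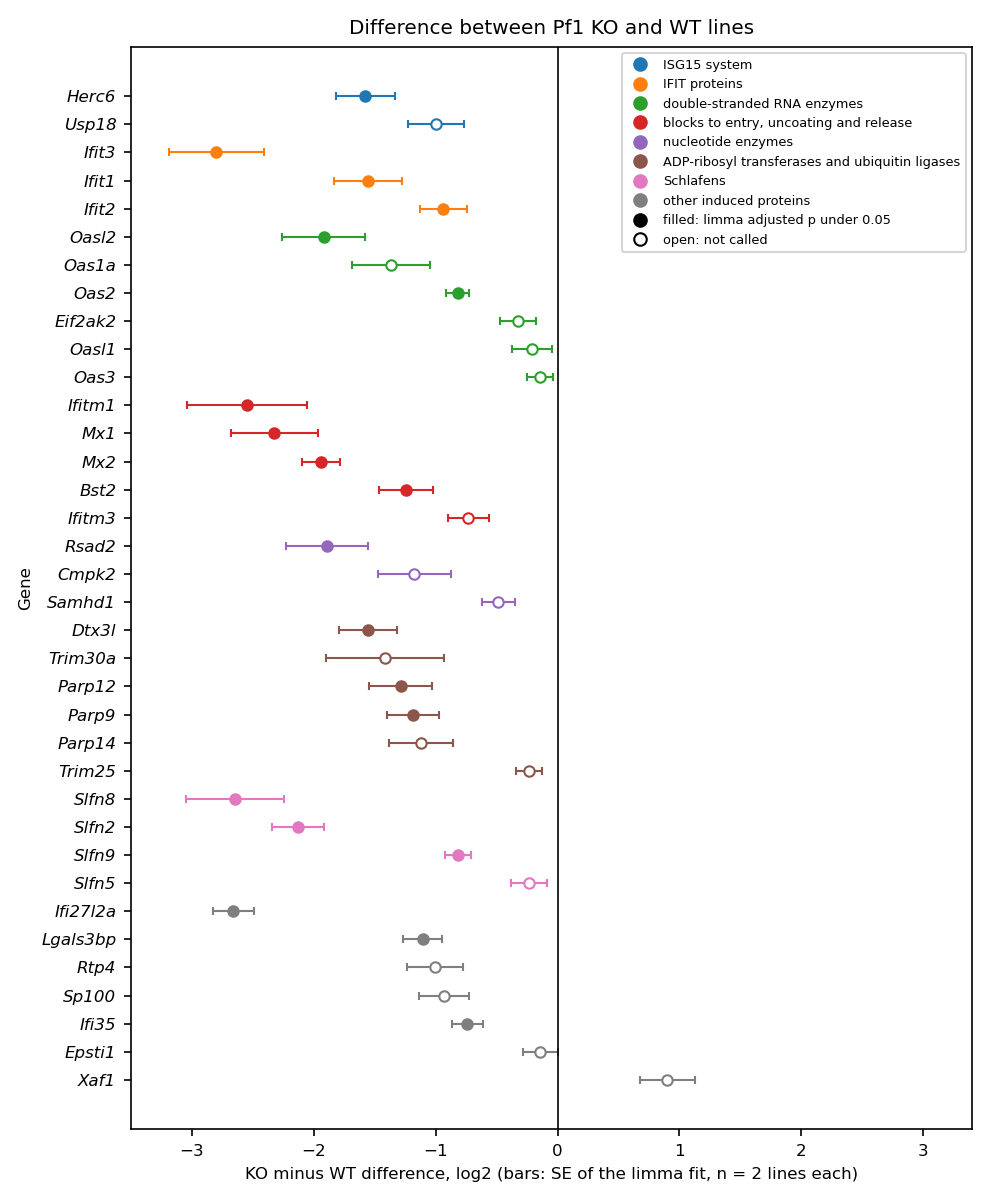
KO minus WT difference of each measured effector (x axis, log2; bars, SE of the limma fit, n = 2 lines per genotype; colours, roles; filled points, limma adjusted p under 0.05). The points run from -2.80 for Ifit3 to 0.90 for Xaf1, and 35 of the 36 lie below 0.

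Xaf1, a pro-apoptotic binding partner of the inhibitor XIAP, was the exception, and its 2 probe sets moved in opposite directions. Probe set 1443621_at stood at 2.86 and 3.56 in KO lines 2 and 4, against -3.65 and -2.86 in WT lines 5 and 6. Probe set 1443698_at stood at -2.64 and -2.18 in the KO lines, against 2.34 and 2.18 in the WT lines. Neither overlapped between the genotypes. The first was 88.6-fold higher in the KO lines (6.47 ± 0.338 SE) and the second 25.4-fold lower (-4.67 ± 0.178 SE), both with a limma adjusted p = 0.01 over all 34945 single-gene probe sets. These were the largest and the second largest difference in size among those probe sets, and of 9010 genes with several probe sets 0 had probe sets farther apart. The gene mean of Xaf1, 0.11 and 0.69 in the KO lines and -0.65 and -0.34 in the WT lines, averages signals of opposite sign (0.90 ± 0.223 SE, limma adjusted p = 0.0637) and describes neither. Where the probes of either set lie in the gene, and whether they match the alleles of these lines, was not examined here.

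Xaf1 and the Schlafens share chromosome 11 with Phf12, the gene deleted in the KO lines. In the RefSeq annotation (GRCm38.p6) 122 protein-coding genes lie between Xaf1 and Phf12, 75 to 78 between Phf12 and the 4 Schlafens, and 166, 444 and 709 between Phf12 and the members Trim25, Ifi35 and Lgals3bp. Of all measured genes on chromosome 11, 12.3% were called in either direction (179 of 1452), against 12.1% on the other chromosomes (2028 of 16693). A share over the whole chromosome cannot show a difference limited to genes near Phf12. Alleles of the parental strains linked to Phf12 were not examined here. The other 28 measured members lie on 11 further chromosomes, and 15 of them were among the 20 that fell.

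Probe sets of the same gene differed elsewhere too. Of the 64 probe sets, 32 were called lower and 1 higher, against 5.76% of all single-gene probe sets called lower. Of the 16 genes with several, Herc6, Rsad2 and Dtx3l had every probe set called lower, 7 had some, and 6 had none. Sp100 had a wide gap, with 1451821_a_at at -1.33 and -0.57 in KO lines 2 and 4, against 0.70 and 0.57 in WT lines 5 and 6 (-1.58 ± 0.257 SE, limma adjusted p = 0.0277). Its other probe set, 1434457_at, differed by -0.28 (limma adjusted p = 0.447). Parp14 was alike, with -1.995 ± 0.4 SE at 1451564_at (limma adjusted p = 0.0411) and -0.24 at 1432548_at. For Slfn9 the differences were -1.52 at 1436472_at (limma adjusted p = 0.0152) and -0.12 at 1458803_at, and for Cmpk2 -1.71 at 1450484_a_at (limma adjusted p = 0.049) and -0.64 at 1422095_a_at. The gene means of these members lie between a probe set that was called and one that was not. With the most variable probe set of each gene in place of the mean, 27 effectors were called lower and 1, Xaf1, higher. Over all genes, that choice called 1373 lower and 1121 higher, against 1265 and 947 with the mean.

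**Figure D4:**
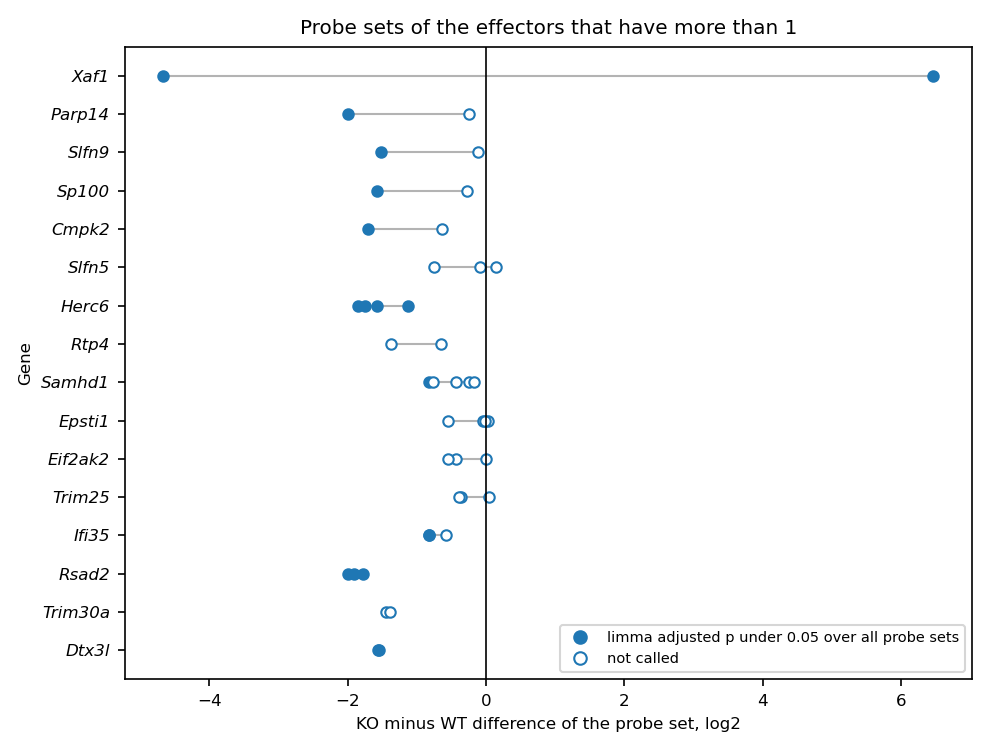
KO minus WT difference of each probe set (x axis, log2) for the 16 effectors with more than 1 probe set, sorted by the distance between their probe sets (filled, limma adjusted p under 0.05 over all probe sets; open, not called). Xaf1 spans -4.67 to 6.47, whereas the probe sets of Dtx3l, Trim30a and Rsad2 lie close together.

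The effectors also ordered the lines within each genotype. KO line 4 was higher than KO line 2 for 34 of 36 effectors, against 47.8% of all genes, with a median gap of 0.44. WT line 5 was higher than WT line 6 for 31 of 36, against 48.2%, with a median gap of 0.33. The full order KO 2, KO 4, WT 6, WT 5 from low to high held for 26 of 36 effectors and for 9.07% of all genes. The difference between the genotypes was larger than both gaps for 31 of 36, against 47.3% of all genes. Relative to the WT mean the median effector was at -1.33 and -0.89 in KO lines 2 and 4 and at 0.17 and -0.17 in WT lines 5 and 6. KO line 4 and WT line 6, the nearest lines of different genotype, were 0.74 apart in the median.

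Markers of other cell types moved with some of these contrasts, and their counts stand against 6.95% of all genes called lower and 5.21% called higher. Relative to the WT mean, the median of 18 macrophage markers was 0.019 and 0.75 in KO lines 2 and 4 and 0.76 and -0.76 in WT lines 5 and 6, and their summed values off the log scale, each relative to its own median, were 15.2 and 24.0 in the KO lines and 24.8 and 9.56 in the WT lines. Macrophage markers were thus higher in the line of each genotype that also had the higher effectors, and limma called 0 of 18 between the genotypes (0 in either direction at an unadjusted p under 0.05, with 2 of 18 lower in the KO mean). WT line 6, with the lowest macrophage median, lay above both KO lines in the effector median. Their part in the gaps between lines was not tested. Of 13 fibroblast markers 6 were called lower in the KO lines, with list medians of -0.69 and -0.60 in KO lines 2 and 4 and 0.14 and -0.14 in WT lines 5 and 6. Of 8 smooth muscle markers 7 were called higher, with 0.91 and 0.77 in the KO lines and -0.066 and 0.066 in the WT lines. Both lists separated the genotypes, as the effectors did, and their part in the difference was not tested. Among the other lists, 1 of 12 lymphoid and plasmacytoid dendritic markers was lower, namely Bst2, itself a member here. Endothelial markers had 2 lower and 1 higher of 11, epithelial markers 1 lower and 2 higher of 8, and skeletal muscle markers 2 higher of 7. Of the 3 measured erythroid markers limma called 0 (0 at an unadjusted p under 0.05). In bulk RNA, fewer cells of a type and less RNA per cell cannot be told apart, and with centred values it cannot be said which markers are absent.

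The genes upstream and beside the effectors were counted by lists. Of 13 measured interferon ligands and receptors, limma called 0, and 2 had an unadjusted p under 0.05, both lower, against 15.2% of all genes. Ifnb1, the interferon that fibroblasts make first, stood at -0.044 and -0.047 in KO lines 2 and 4, against 0.044 and 0.13 in WT lines 5 and 6 (-0.13, limma adjusted p = 0.364), and without a signal level it is not known whether it was expressed. Ifnar2, a chain of the type I interferon receptor, stood at -0.41 and -0.19 in the KO lines, against 0.64 and 0.19 in the WT lines, without overlap (-0.72 ± 0.176 SE, limma adjusted p = 0.0619). The other chain, Ifnar1, did not overlap either (-0.32 ± 0.148 SE, limma adjusted p = 0.239). Of the 13 genes, 9 were lower in the KO mean. The remaining members of the list with the smallest p were Il10rb (-0.25, limma adjusted p = 0.123) and Ifna5 (0.20, limma adjusted p = 0.199).

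Of 16 kinases, Stats, Irfs and Socs inhibitors, 5 fell and 0 rose (without adjustment 7 and 0), against 6.95% of all genes called lower. Stat2 stood at -0.86 and -0.67 in KO lines 2 and 4, against 1.01 and 0.67 in WT lines 5 and 6 (-1.61 ± 0.145 SE, limma adjusted p = 0.0137). Irf7, which amplifies the response, stood at -0.98 and -0.64 in the KO lines, against 0.93 and 0.64 in the WT lines (-1.59 ± 0.162 SE, limma adjusted p = 0.0155). Irf9, the DNA-binding partner of Stat2, stood at -0.53 and -0.27 in the KO lines, against 0.27 and 0.32 in the WT lines (-0.69 ± 0.115 SE, limma adjusted p = 0.0289). None of these overlapped between the genotypes. The factor Irf1 (-0.79) and the feedback inhibitor Socs3 (-1.54) were the other called genes. Jak1 (-0.054, limma adjusted p = 0.838) and Tyk2 (-0.096, limma adjusted p = 0.513) were not called.

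Against the same 6.95% of all genes called lower, the further lists were as follows. Of 14 RNA and DNA sensors, 5 fell and 0 rose (without adjustment 8 and 1): Sting1 (-0.84 ± 0.081 SE, limma adjusted p = 0.0146), the RIG-I relative Dhx58 (-0.99 ± 0.135 SE, limma adjusted p = 0.0204), Zbp1 (-1.84 ± 0.284 SE, limma adjusted p = 0.0257), Adar (-0.65) and Ddx58 (-0.72), which encodes RIG-I. The sensor that was higher without adjustment was Cgas (0.33 ± 0.091 SE, limma adjusted p = 0.0793), without overlap between the genotypes. Of 8 interferon-inducible GTPases 6 fell, with the smallest p for Iigp1 (-3.16 ± 0.386 SE), Gbp6 (-3.01 ± 0.398 SE) and Igtp (-1.53 ± 0.256 SE), with limma adjusted p between 0.018 and 0.0295. Of 12 genes of class I antigen presentation and the immunoproteasome 6 fell, with the smallest p for H2-K1 (-1.37 ± 0.153 SE), Psme1 (-1.30 ± 0.148 SE) and Tapbp (-1.23 ± 0.154 SE). Of the 4 measured genes of the Isg15 conjugation list, which shares Herc6 and Usp18 with the effectors, 3 fell. Targets of NF-kB, an inflammatory pathway, had 2 of 11 called lower, Relb (-0.79) and Birc3 (-0.64), and a list median of -0.64. Of these 11, 10 were lower in the KO mean. Without adjustment 6 were lower and 1 higher (limma p under 0.05), against 15.2% and 14.3% of all genes. The list medians were -0.057 for ligands and receptors, -0.25 for kinases and factors, -0.68 for sensors, -1.77 for GTPases and -1.14 for class I genes.

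**Figure D5:**
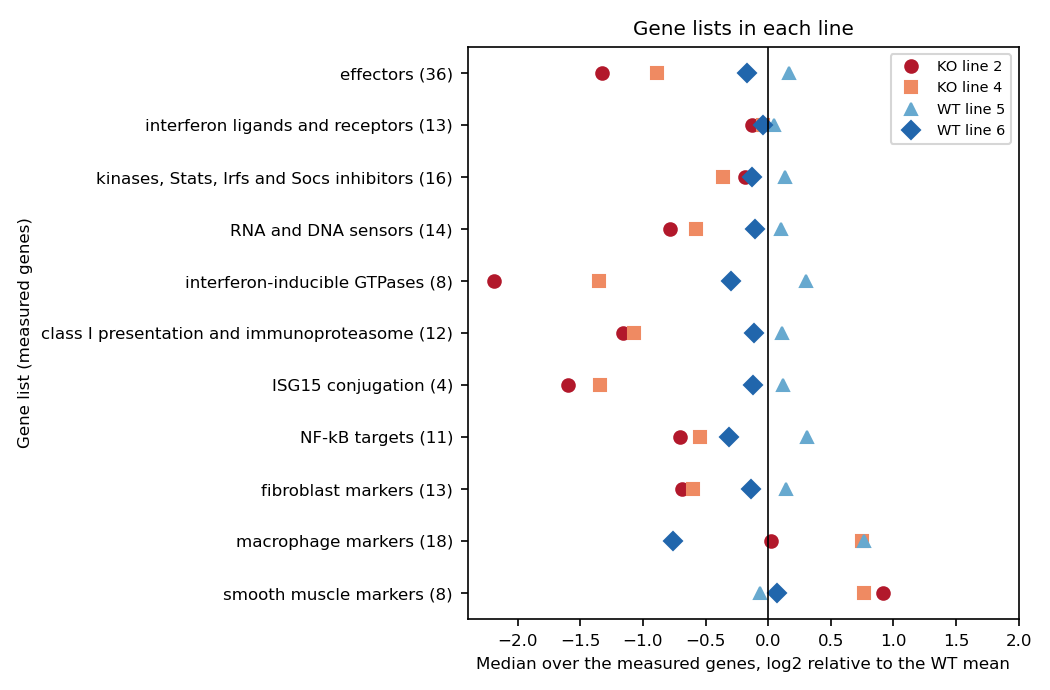
Median of each gene list in each line (x axis, log2 relative to the WT mean of each gene; number of measured genes in parentheses; symbols, the 4 lines). The effectors lie at -1.33 and -0.89 in KO lines 2 and 4 and at 0.17 and -0.17 in WT lines 5 and 6, the interferon ligands and receptors near 0 in all 4, and the macrophage markers follow another order of lines.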

How the data were processed

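Total RNA of 4 mouse fibroblast lines (2 per genotype) was labelled and hybridised to 1 Affymetrix array each. The deposited values are log2 expression made by the authors with Affymetrix Expression Console and RMA, as the submitters' processing notes record without versions. The log base was taken from the method. The series text names a smaller array (430A 2.0) than the one whose annotation matched the 45101 probe sets. The median of 100% of probe sets over the arrays was 0 within 1e-06, a centring that the labels do not describe. No depth, detection call, scan date or batch was used, and precision is limited by the 4 arrays.

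Probe sets with 1 gene in the platform annotation (34945) were averaged per gene. The 64 controls, 932 probe sets of several genes and 9160 without a gene name were left out. Symbols were checked through Entrez identifiers against RefSeq (GRCm38.p6), which matched 34741 probe sets and changed 0. limma 3.58.1 in R 4.3.3 (lmFit, then eBayes) gave KO minus WT without covariates over all 18193 genes or all single-gene probe sets (3.04 prior degrees of freedom for genes). The fit was tested on simulated data with noise independent between genes. That test does not cover genes that move together by line, as the members did. The members, gene lists and tests were chosen with earlier results of these data known, so the list itself has no p. Values per line are given for all measured members. From each pathway list up to 3 genes with the smallest p are named. Named beyond that rule, after their values were seen, were Ifnb1, Ifnar1, Jak1, Tyk2, Irf1, Socs3, Adar, Ddx58, Cgas and single probe sets. Alternatives were quantile normalisation, array weights, other summaries of probe sets, a robust prior and leaving out each line. Quantile normalisation was run on the centred values. It therefore gave the lines' deviations from the median 1 distribution and did not act on signal levels.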

Additional observations from a re-analysis of the deposited data

How the results depend on the processing

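The 20 effectors called lower became 27 after quantile normalisation, 27 with the most variable probe set per gene, 23 with a robust prior, 20 with the median of probe sets, 19 with array weights and 18 (of 31 measured) without probe sets ending in _s_at, _x_at or _a_at. Over all genes, 1265 were called lower in the main fit and, in the same order of settings, 1497, 1373, 1326, 1180, 1230 and 992. The median difference of the effectors lay between -1.37 and -1.02 over these settings. The most variable probe set raised the members called higher from 0 to 1 (Xaf1, 6.47). With 1 line left out, calls ranged from 0 to 13 lower effectors and 0 probe sets in either direction, and from 0 to 234 lower and 0 to 87 higher genes over all. The lists then had 0 to 2 (kinases, Stats, Irfs and Socs), 0 (sensors), 0 to 1 (GTPases), 0 to 1 (class I), 0 to 3 (Isg15 conjugation) and 0 (NF-kB) lower calls. These fits have fewer samples and 1 residual degree of freedom.

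Quantile normalisation gave 1 lower ligand or receptor gene and 8 lower sensors. Without the probe sets of those 3 suffixes, 2 kinases, Stats, Irfs or Socs genes were lower and 1 higher, and 1 NF-kB target was lower. The most variable probe set also gave 1 higher gene among the kinases, Stats, Irfs and Socs. The cause was not tested. Signs turned for Oasl1 (0.011) and Epsti1 (0.031) without WT line 5, against -0.43 and -0.32 without WT line 6, and for Phf12 probe set 1453579_at (-0.051) without WT line 6, against 0.075 without WT line 5. No paired analysis was possible because no line number occurs in both genotypes. A filter on dim probe sets was not run, since centred values hold no level.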
